A study of Homo sapiens with 12 samples.

Results

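Canonical PRC1 is the form of Polycomb repressive complex 1 that is built on the paralogs PCGF2 (MEL18) or BMI1 (PCGF4). The 9 genes described here encode subunits of that form, namely CBX2, CBX6, CBX7, CBX8, PHC1, PHC2, PHC3, PCGF2 and BMI1. They were picked by gene symbol, by a rule that uses no measured value although earlier results of these data were known, from the 60609 genes listed for each library, and they do not make up every known subunit of the complex. In K562 cells the 4 CBX genes were all lower after FT671 by 1.96-fold to 3.44-fold, BMI1 was lower by 1.29-fold and PHC2 by 1.22-fold, and PHC1, PHC3 and PCGF2 did not pass the test. K562 is an established erythroleukemic line that was derived from a patient with chronic myeloid leukemia. FT671 is a compound that blocks the catalytic activity of USP7, a deubiquitinase that also associates with PRC1 complexes. RNA-seq was performed on 3 samples treated with DMSO, the solvent control, and on 3 samples treated with 10 μM FT671, all for 48 h and numbered as replicates 1, 2 and 3. All libraries come from 1 cell line, the study describes the replicates as independent experiments, and the labels do not say whether equal numbers in both treatments mark the same experiment. The series also labels ChIP-seq samples of H3K4me3, H3K36me3 and H3K27me3 after 24 h, which were not analysed here.

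As background, PRC1 is an E3 ubiquitin ligase that places monoubiquitin on histone H2A, a mark called H2AK119ub, through RING1A or RING1B bound to a PCGF protein. In canonical PRC1 a CBX protein reads the H3K27me3 mark of PRC2 with its chromodomain, and a PHC (polyhomeotic) protein joins complexes to each other through its SAM domain. Non-canonical complexes such as PRC1.1 lack CBX and PHC proteins, carry RYBP or YAF2 in place of the CBX protein, and reach chromatin without reading H3K27me3. BMI1 is best known in blood for its part in the self-renewal of hematopoietic stem cells, and CBX paralogs are known to take different roles in self-renewal and differentiation there.

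The libraries held between 4555220 and 14250500 counts on genes, and FT671 replicates 1 and 2 and DMSO replicate 3 were the shallowest. DMSO replicate 3 stood apart from the other DMSO libraries, for its counts gave a chi-square statistic, divided by the degrees of freedom, of 7.55 and 8.73 against replicates 1 and 2, which gave 2.94 against each other. Pairs of FT671 libraries gave 2.07 to 3.20, and sampling noise alone would give about 1, so none of them was deposited again under another number. The erythroid genes that mark K562 were all detected, with GATA1 at 297 and TFRC at 565 CPM (counts scaled to the library total) on average in DMSO, and their summed level was 1270 to 1309 CPM in DMSO and 1128 to 1165 CPM after FT671. Of these 9 genes 6 fell and 3 rose. The B cell markers summed to at most 3.76 CPM and the fibroblast markers to at most 2.91 CPM in any library. The summed levels of T cell, monocyte and epithelial markers were 16.8 to 20.5, 51.2 to 54.0 and 296 to 342 CPM in DMSO and 23.7 to 29.3, 72.2 to 76.0 and 394 to 419 CPM after FT671, nearly all from CD3D, LYZ, EPCAM and KRT8. The defining markers CD2 and MS4A1 had 0 counts in every library, and CD3E, CD79A, CD14, CSF1R and CDH1 had at most 4. The part of these marker genes in the results below was not tested. In RNA from bulk cultures, a lower level in each cell and fewer cells with the transcript cannot be told apart.

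The members are spread over 6 chromosomes, and the CBX genes lie in pairs. In hg38, CBX2 (ENSG00000173894) lies on chromosome 17 from 79778148 to 79787983 on the plus strand, and CBX8 (ENSG00000141570) lies next to it from 79792132 to 79801683 on the minus strand, with 4148 bases between them. CBX6 (ENSG00000183741) and CBX7 (ENSG00000100307) lie on chromosome 22 from 38861422 to 38872249 and from 39120167 to 39152680, both on the minus strand and 247917 bases apart. PHC1 (ENSG00000111752) is on chromosome 12 (8913896 to 8941467, plus strand), PHC2 (ENSG00000134686) on chromosome 1 (33323623 to 33431095, minus strand) and PHC3 (ENSG00000173889) on chromosome 3 (170086732 to 170181749, minus strand). PCGF2 (ENSG00000277258) is on chromosome 17 (38733898 to 38749817, minus strand) and BMI1 (ENSG00000168283) on chromosome 10 (22321099 to 22331484, plus strand).

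The promoters of CBX6 and CBX7 are shown because these genes lie near each other on chromosome 22 and both fell. With all libraries CBX6 had the lowest log2 fold change of the 9 genes, and without FT671 replicate 3 CBX7 did (CBX7 −1.82, CBX6 −1.75). CBX7 was next to CBX6 with all libraries but came after CBX2 without DMSO replicate 3 (CBX7 −1.34, CBX2 −1.39) or without FT671 replicate 1 (−1.17 and −1.34). The bases lie before both the RefSeq start and the gene as annotated by GENCODE, on the minus strand of GRCh38.p14, at chr22:38872250-38872466 for CBX6 and chr22:39152681-39152930 for CBX7. Both stretches are therefore outside the exons and introns of these genes. Capitals mark the GC box GGGCGG on either strand, so that CCGCCC is capitalised as well.
CBX6: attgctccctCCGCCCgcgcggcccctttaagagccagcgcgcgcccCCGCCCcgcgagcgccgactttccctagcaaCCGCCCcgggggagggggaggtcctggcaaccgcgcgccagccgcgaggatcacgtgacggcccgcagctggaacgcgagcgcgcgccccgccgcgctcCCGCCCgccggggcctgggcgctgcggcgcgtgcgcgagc
CBX7: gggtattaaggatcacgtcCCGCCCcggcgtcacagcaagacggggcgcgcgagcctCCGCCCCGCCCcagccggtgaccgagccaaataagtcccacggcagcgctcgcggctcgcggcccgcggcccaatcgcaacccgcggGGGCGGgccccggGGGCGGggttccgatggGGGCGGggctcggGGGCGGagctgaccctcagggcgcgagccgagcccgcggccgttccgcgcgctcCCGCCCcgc

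Both promoters were rich in CpG, the dinucleotide whose unmethylated form is bound by KDM2B, the subunit that brings PRC1.1 to chromatin. In the 250 bases before the RefSeq start, CBX6 held 45 CpG and CBX7 held 41, against a median of 11 over 34943 RefSeq promoters of the same length. As many CpG as in CBX6 were found in 0.587% of these promoters, and as many as in CBX7 in 1.74%. The GC box was found 4 times in CBX6 and 8 times in CBX7 on either strand, counting overlapping matches, and 42.5% of all promoters held it at least once. At least 4 matches were found in 7.6% of all promoters and at least 8 in 0.575%. The E-box CACGTG, which reads the same on both strands and is in 6.32% of all promoters, was found once in CBX6 and not in CBX7. RefSeq promoters were matched for 7 of the 9 members, and CBX2 and CBX8 were not among them. The window of PCGF2, whose RefSeq start lies inside the GENCODE gene, held 1 CpG, whereas the start of BMI1 used in its gene model had 35 CpG and 6 GC boxes. Another BMI1 window, inside the gene, held 54 CpG, more than CBX6. The PHC2 windows held 36 and 21 CpG, those of PHC1 10 and 23, and that of PHC3 13. Many CpG were therefore not particular to CBX6 and CBX7 among the members.

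To ask whether USP7 inhibition changed the RNA of canonical PRC1 subunits, FT671 was compared with DMSO over the 13895 genes that passed a filter on low counts, using the quasi-likelihood test of edgeR and p-values adjusted by the Benjamini-Hochberg method. All 9 members passed the filter. At an adjusted p-value of 0.05, 6 members were lower and 0 were higher after FT671, while 26.5% of all genes tested were lower and 23.6% were higher. DESeq2's Wald test also called 0 members as higher, and at an unadjusted p-value of 0.05 edgeR called 0 as higher. At 1e-05, the stricter threshold used in the study's methods, CBX2 and CBX6 were lower, against 4.13% of all genes, and 0 members were higher, against 1.79%. CBX6 stayed below 1e-05 whichever library was left out, whereas CBX2 did not without DMSO replicate 1 (1.15e-05) or FT671 replicate 1 (1.30e-05), 2 (2.21e-05) or 3 (6.34e-05), all adjusted p-values from edgeR, and CBX8 passed it without DMSO replicate 3 (5.82e-07). The median log2 fold change of the 9 members was −0.37, against −0.010 over all genes tested. In 6 members the FT671 libraries all lay below the DMSO libraries, which was so for 30.3% of all genes, and in PHC1 every FT671 library was higher, which was so for 26.8%. Without DMSO replicate 3, the library that stood apart, 6 members were again lower and 0 higher at 0.05.

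**Figure D1:**
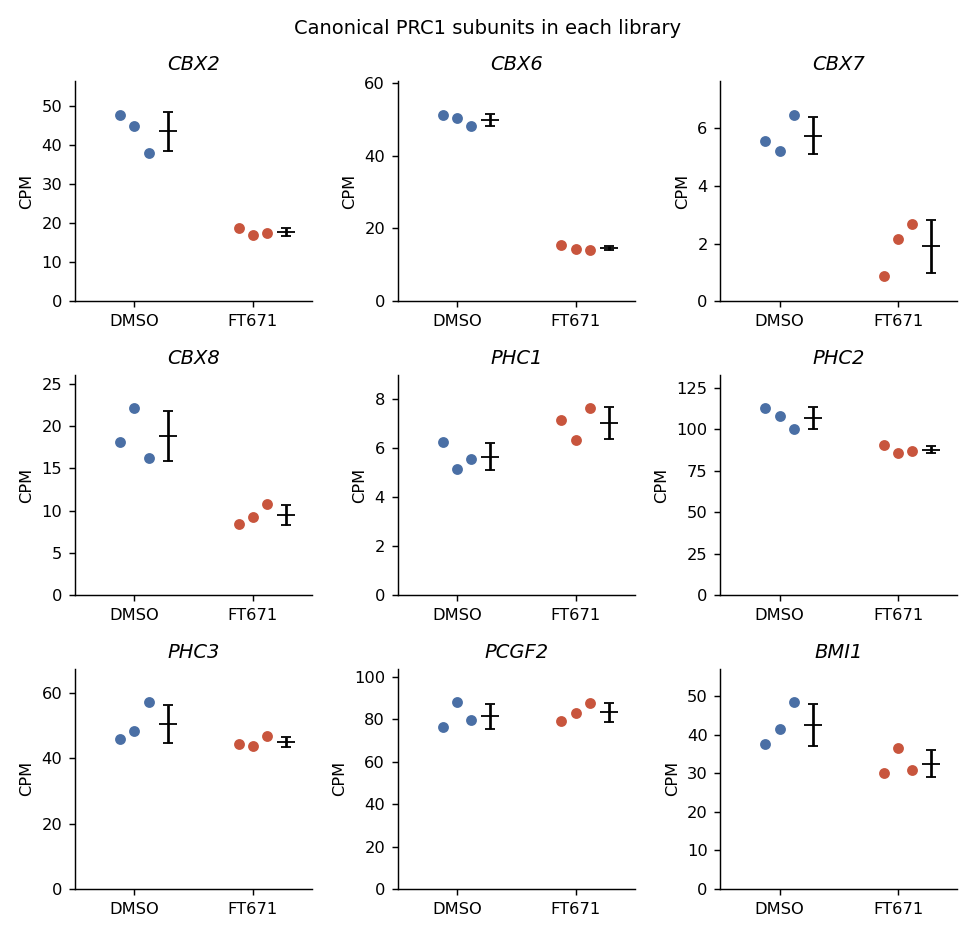
Expression in CPM (y axis, from 0, with its own scale in each panel) of the 9 subunits in the 3 DMSO (blue) and 3 FT671 (red) libraries, ordered by replicate number within a treatment, with the mean and SD beside the points. The treatments are apart in the 4 CBX panels and in PHC1, PHC2 and BMI1, and overlap in PHC3 and PCGF2.

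The CBX proteins are the subunits that read H3K27me3, and all 4 measured CBX genes fell. CBX6, a chromodomain paralog of the same family, had 51.2, 50.4 and 48.1 CPM in DMSO replicates 1, 2 and 3 and 15.3, 14.4 and 14.1 CPM in the FT671 replicates. Its replicates were close together in both treatments, and its lowest DMSO library was far above its highest FT671 library. The log2 fold change was −1.78 (standard error, SE, 0.106, with an edgeR adjusted p = 3.67e-08), or 3.44-fold lower, from 49.9 ± 1.65 to 14.6 ± 0.624 CPM (SD, n = 3 each). Ordered from the lowest log2 fold change, CBX6 was at rank 130 of the 13895 genes tested.

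CBX2 is the paralog known for compacting nucleosomes. It had 47.8, 44.8 and 38.1 CPM in the DMSO libraries and 18.9, 17.0 and 17.6 CPM after FT671. DMSO replicate 3 was the lowest of its group and still far above the highest FT671 library. Its log2 fold change was −1.31 (SE 0.117, edgeR adjusted p = 1.01e-06), a 2.48-fold fall. CBX8, the neighbour of CBX2 on chromosome 17, is known as a cofactor of transformation by MLL fusion proteins. It had 18.1, 22.1 and 16.3 CPM in DMSO and 8.44, 9.20 and 10.7 CPM after FT671. The groups did not overlap, and the log2 fold change was −0.97 (SE 0.155, edgeR adjusted p = 1.52e-04).

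CBX7, the paralog best known for keeping hematopoietic stem cells in self-renewal, had the lowest expression of the CBX genes. It had 80, 57 and 35 counts in the DMSO libraries, or 5.54, 5.22 and 6.47 CPM. In the FT671 libraries it had 4, 12 and 30 counts, or 0.888, 2.17 and 2.68 CPM. FT671 replicate 1 was close to the floor of 3 counts taken as the smallest detectable level, which is 0.659 CPM there. The log2 fold change was −1.41 (SE 0.277, edgeR adjusted p = 8.21e-04), and its standard error was the largest of the 9 members. CBX7 shares 1338 exon bases with a lncRNA gene on the opposite strand (ENSG00000279833), which had 0 to 25 counts per library and a log2 fold change of −1.66 (edgeR adjusted p = 0.0119). CBX7 also shares 274 exon bases on the same strand with the processed pseudogene COX5BP7, which had 0 counts in every library.

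**Figure D2:**
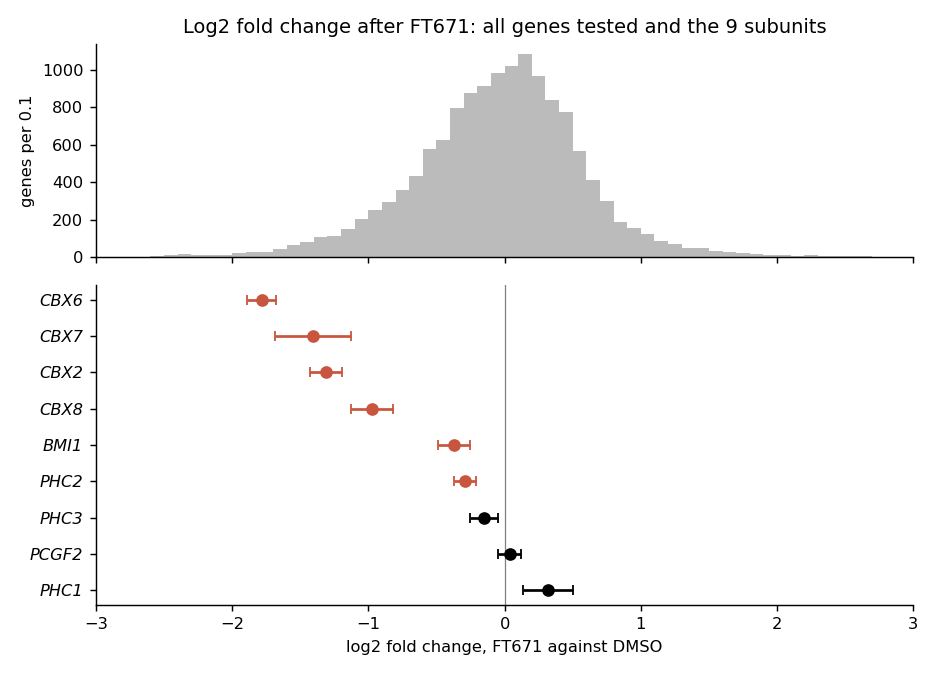
Upper panel, number of genes (y axis) by log2 fold change after FT671 (x axis, bins of 0.1) over all genes tested, of which 16 lie outside the range shown. Lower panel, log2 fold change and standard error of the 9 subunits, in red where the adjusted p-value is below 0.05. The 4 CBX genes lie between −1.78 and −0.97, in the lower tail, and the PHC and PCGF genes lie between −0.37 and 0.32.

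The PHC proteins carry the SAM domain that lets PRC1 assemble into larger bodies, and 1 of the 3 PHC genes fell. PHC2 had 112.7, 108.4 and 100.0 CPM in DMSO and 90.4, 86.1 and 87.2 CPM after FT671. Each FT671 library was below each DMSO library, with a log2 fold change of −0.29 (SE 0.0777, edgeR adjusted p = 0.00665), a 1.22-fold fall. PHC2 shares 167 exon bases with a lncRNA gene on the opposite strand (ENSG00000225313), which had 0 to 8 counts per library. It also shares 12 exon bases on the same strand with MIR3605, which had 0 counts in every library. PHC3 had 46.0, 48.5 and 57.1 CPM in DMSO and 44.4, 43.8 and 46.7 CPM after FT671. The treatments overlapped, DMSO replicate 3 was the highest library, and the log2 fold change of −0.15 (SE 0.103, edgeR adjusted p = 0.240) was −0.069 without that library. After a correction for GC content PHC3 was called as lower (−0.20, edgeR adjusted p = 0.0465).

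PHC1 was the member with the highest log2 fold change. It had 6.23, 5.13 and 5.55 CPM in DMSO and 7.11, 6.32 and 7.60 CPM after FT671, so the lowest FT671 library was just above the highest DMSO library. With 30 to 90 counts per library, its log2 fold change of 0.32 (SE 0.181, edgeR adjusted p = 0.158) was not detectable as a difference at this depth. PHC1 shares 1107 exon bases with M6PR on the opposite strand, which encodes a mannose 6-phosphate receptor and had a log2 fold change of −0.21 (edgeR adjusted p = 0.0564).

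PCGF2 and BMI1 bind RING1A or RING1B in place of each other and define the PRC1.2 and PRC1.4 complexes. PCGF2 had 76.3, 88.1 and 79.9 CPM in DMSO and 79.3, 82.8 and 87.9 CPM after FT671. The treatments overlapped, with a log2 fold change of 0.038 (SE 0.0849, edgeR adjusted p = 0.734). BMI1 had 37.6, 41.4 and 48.4 CPM in DMSO and 30.2, 36.4 and 30.9 CPM after FT671. The highest FT671 library, replicate 2, was just below the lowest DMSO library, replicate 1. The log2 fold change of BMI1 was −0.37 (SE 0.119, edgeR adjusted p = 0.0179). It was no longer past 0.05 without FT671 replicate 1 (−0.33, edgeR adjusted p = 0.0639) or without FT671 replicate 3 (−0.33, edgeR adjusted p = 0.0920), and without DMSO replicate 3 it was −0.29 (edgeR adjusted p = 0.0168).

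The counts of both genes depend on overlapping genes. BMI1 shares 1000 of its 4395 exon bases on the same strand with the read-through gene COMMD3-BMI1, which has no exon base of its own and 0 counts in all 6 libraries. COMMD3, the upstream gene of that read-through, had a log2 fold change of −0.45 (SE 0.168, edgeR adjusted p = 0.0369). Of the 3510 exon bases of PCGF2, 456 are shared with a lncRNA gene (ENSG00000277182) and 1703 with CISD3, both on the opposite strand. CISD3 is a mitochondrial iron-sulfur protein gene and had a log2 fold change of 0.18 (edgeR adjusted p = 0.0642). The strand setting of the counting is not given in the sources used here, so it is not known whether reads in the shared bases of PCGF2 were counted. The shared bases of BMI1 lie on the same strand as the read-through gene, so the strand setting does not decide their case. No read in them was counted for the read-through gene, which had 0 counts. Whether such reads were counted for BMI1 was not tested.

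Levels of different genes were compared as TPM, which divides counts by exon length. PCGF2 had the highest level of the 9 members in DMSO (77.2 ± 5.36 TPM), followed by PHC2 (64.1 ± 2.10), BMI1 (32.3 ± 5.90), CBX2 (25.5 ± 1.89), CBX6 (20.8 ± 0.631), CBX8 (15.1 ± 1.67), PHC3 (9.99 ± 1.71), PHC1 (3.06 ± 0.350) and CBX7 (2.57 ± 0.441, SD, n = 3 each). Neighbours in this order did not overlap between libraries, except PHC1 and CBX7. After FT671, PHC3 (8.50 ± 0.295 TPM) was at rank 5, above CBX8 (7.33 ± 0.935) with overlapping libraries, and CBX6 (5.85 ± 0.210 TPM, SD, n = 3 each) dropped from rank 5 to rank 7. The ranks of the other 6 members were the same in both treatments. With the exon bases that no other gene shares as the length, PCGF2 had 200.6 TPM and BMI1 41.9 TPM on average in DMSO, so the size of the excess of PCGF2 over BMI1 depends on how the overlaps were counted.

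The summed level of the 4 CBX genes fell from 65.3, 64.5 and 62.1 TPM in DMSO to 23.5, 23.5 and 25.1 TPM after FT671, a 2.66-fold difference. The 3 PHC genes summed to 78.6, 74.0 and 79.0 TPM in DMSO and to 63.6, 61.5 and 63.2 TPM after FT671, a 1.23-fold difference. PCGF2 and BMI1 summed to 99.0, 110.0 and 119.7 TPM in DMSO and to 93.4, 102.6 and 102.8 TPM after FT671, and here the treatments overlapped. In every library the CBX sum was the lowest of the 3 sums. By a two-sided exact permutation test of the log2 sums, p was 0.1 for CBX, 0.1 for PHC and 0.3 for PCGF (0.15, 0.15 and 0.3 adjusted over the 3 sums), where 0.1 is the smallest p that 3 libraries against 3 allow.

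**Figure D3:**
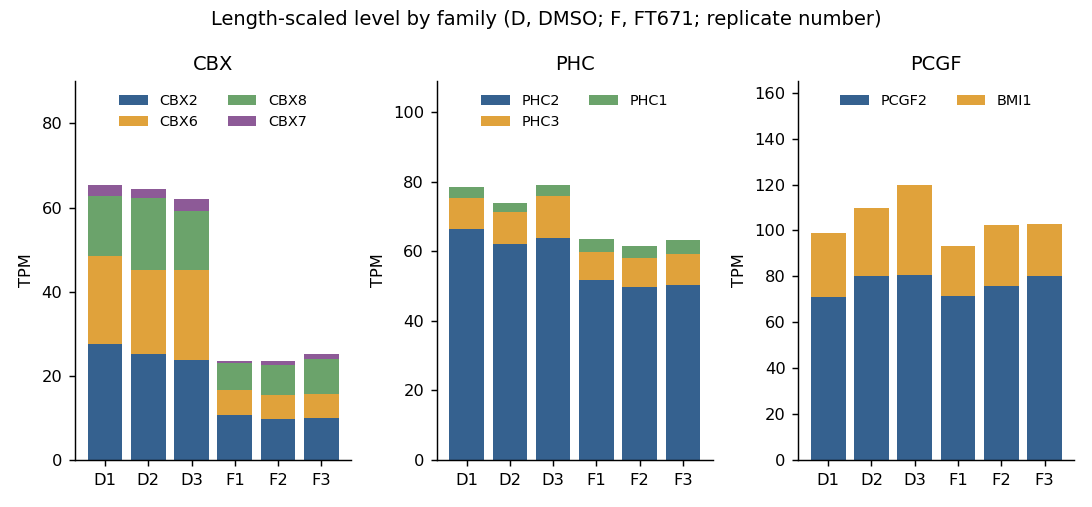
Stacked bars of TPM (y axis, from 0) of the CBX, PHC and PCGF members in each library (D, DMSO; F, FT671; replicate number). The CBX bars are between 62.1 and 65.3 TPM in DMSO and between 23.5 and 25.1 TPM after FT671, while the PHC and PCGF bars change less.

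Paralogs that fill the same place in the complex were compared as log2 ratios within each library, with 5 pairs tested by two-sided exact permutation tests. The log2 ratio of PCGF2 to BMI1 was 1.35, 1.41 and 1.05 in DMSO and 1.72, 1.51 and 1.83 after FT671, without overlap. It rose by 0.42 (exact permutation p = 0.1, 0.25 adjusted over the 5 pairs), and PCGF2 made up 70.6% ± 2.85 of the 2 transcripts in DMSO and 76.2% ± 2.07 after FT671 (SD, n = 3 each). The log2 ratio of PHC1 to PHC2 was −4.32, −4.55 and −4.32 in DMSO and −3.81, −3.91 and −3.67 after FT671, a rise of 0.60 (exact permutation p = 0.1, 0.25 adjusted). PHC2 remained the main PHC transcript, with 83.1% ± 2.01 of the PHC sum in DMSO and 80.7% ± 0.797 after FT671 (SD, n = 3 each). The ratios of PHC3 to PHC2 (exact permutation p = 0.5) and of CBX8 to CBX2 (p = 0.2) overlapped between treatments, with adjusted p-values of 0.625 and 0.333.

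Within the CBX sum, the share of CBX6 was 32.1%, 31.1% and 34.3% in DMSO and 25.9%, 24.7% and 22.6% after FT671. The share of CBX8 was 22.0%, 26.4% and 22.5% in DMSO and 27.6%, 30.5% and 33.2% after FT671. Both shares were apart between treatments (exact permutation p = 0.1 each, 0.18 adjusted over the 9 shares). CBX2 held the largest share in every library, 39.8% ± 2.07 in DMSO and 41.8% ± 2.76 after FT671 (SD, n = 3 each), which overlapped. The share of CBX7 was 3.71%, 3.45% and 4.94% in DMSO and 1.60%, 3.96% and 4.59% after FT671. These overlapped as well, and the log2 ratio of CBX6 to CBX7 differed by −0.044 (exact permutation p = 1, also after adjustment), with a wide spread after FT671 (SD 0.906) in which replicate 1 with 4 counts of CBX7 was the highest at 4.01.

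The genes whose pattern over the 6 libraries was most like that of CBX6, the member with the largest change, were ST3GAL2, FAM171A1 and SUV39H1. They were taken from 13866 genes with a mean of at least 1 CPM by the root mean square distance of centred log2 CPM, which was 0.0349, 0.0685 and 0.0736. ST3GAL2, a sialyltransferase gene, had 379, 384 and 350 CPM in DMSO and 118.6, 111.7 and 103.1 CPM after FT671, a log2 fold change of −1.75. SUV39H1, a histone H3K9 methyltransferase gene, had a log2 fold change of −1.67 and FAM171A1 of −1.79. The likeness is a description over 6 libraries that fall into 2 treatments.

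The remaining partners of canonical PRC1 moved in both directions. RNF2, which encodes the E3 ligase RING1B, had 45.4, 46.8 and 62.3 CPM in DMSO and 66.6, 61.5 and 71.0 CPM after FT671. It was called as higher, with a log2 fold change of 0.39 (SE 0.118, edgeR adjusted p = 0.0130), although its DMSO replicate 3 was above FT671 replicate 2. The call was lost without DMSO replicate 1 (0.30), without DMSO replicate 2 (0.34) or without FT671 replicate 3 (0.33). RING1, which encodes RING1A, had a log2 fold change of 0.23 (SE 0.0924, edgeR adjusted p = 0.0512), with every FT671 library above every DMSO library, and it passed 0.05 with DESeq2's size factors, with a stricter filter, with the GC correction or without DMSO replicate 2. With the gene length correction it was 0.10 (edgeR adjusted p = 0.364).

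SCMH1 and SCML2 belong to the SCM proteins, SAM domain partners of PHC, and SCML2 is known to bind USP7. SCMH1 had 112.6, 122.2 and 108.5 CPM in DMSO and 81.7, 81.4 and 85.6 CPM after FT671, with no overlap and a log2 fold change of −0.46 (SE 0.0781, edgeR adjusted p = 2.40e-04). SCML2 had 50.3, 45.9 and 62.9 CPM in DMSO and 34.9, 48.0 and 48.4 CPM after FT671. The treatments overlapped, and its log2 fold change of −0.24 (SE 0.137, edgeR adjusted p = 0.155) was called as lower only with the GC correction, with and without the replicate number as a block. SCML1 did not pass 0.05.

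Over all genes tested, 26.5% were lower and 23.6% were higher at 0.05. In the PRC1.1 list of 9 genes, 4 fell, 2 rose and 3 did not pass 0.05, with a median log2 fold change of −0.10. Those that fell were USP7 (−1.83), KDM2B (−0.75), TRIM27 (−0.41) and BCOR (−0.39), and those that rose were SKP1 (0.65) and YAF2 (0.35), a binding partner of RING1B that competes with the CBX proteins. Only 1 gene of the list was called as higher without a filter or without FT671 replicate 3. USP7, the gene of the inhibited enzyme, had 118.7, 106.9 and 131.4 CPM in DMSO and 29.3, 34.1 and 35.8 CPM after FT671. PCGF1, the PCGF paralog of PRC1.1, had a log2 fold change of −0.10 (edgeR adjusted p = 0.508). Of the other PCGF paralogs, PCGF6 had a log2 fold change of 0.38 just past the threshold (edgeR adjusted p = 0.0496), while PCGF3 and PCGF5 did not pass 0.05. None of the 3 was called as higher with library totals alone, without a filter, with the stricter filter, by DESeq2's Wald test or with the gene length correction, nor without DMSO replicate 1 or 2 or FT671 replicate 1 or 2.

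PRC2 writes the H3K27me3 mark that the CBX proteins read. Of its 11 listed genes, 3 fell, 2 rose and 6 did not pass 0.05, with a median log2 fold change of −0.090. The shares over all genes tested were 26.5% lower and 23.6% higher, and 3 in 11 is close to the former. EZH1, a less active methyltransferase paralog of EZH2, had 23.5, 30.1 and 27.4 CPM in DMSO and 11.5, 13.2 and 12.9 CPM after FT671. It fell with a log2 fold change of −1.09 (SE 0.133, edgeR adjusted p = 1.59e-05). JARID2, an accessory subunit, changed by −0.83, and EED, the core subunit that binds H3K27me3, by −0.54. EZH2, the main methyltransferase, had 158.6, 153.9 and 186.7 CPM in the DMSO libraries and 159.9, 178.6 and 188.4 CPM in the FT671 libraries, and its log2 fold change of 0.088 (edgeR adjusted p = 0.435) was past 0.05 as higher with the gene length correction (0.23) and without DMSO replicate 3 (0.17). The histone binding subunit RBBP7 (0.51) and the accessory subunit PHF19 (0.27) rose, and 1 gene of the list was called as higher without FT671 replicate 1.

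**Figure D4:**
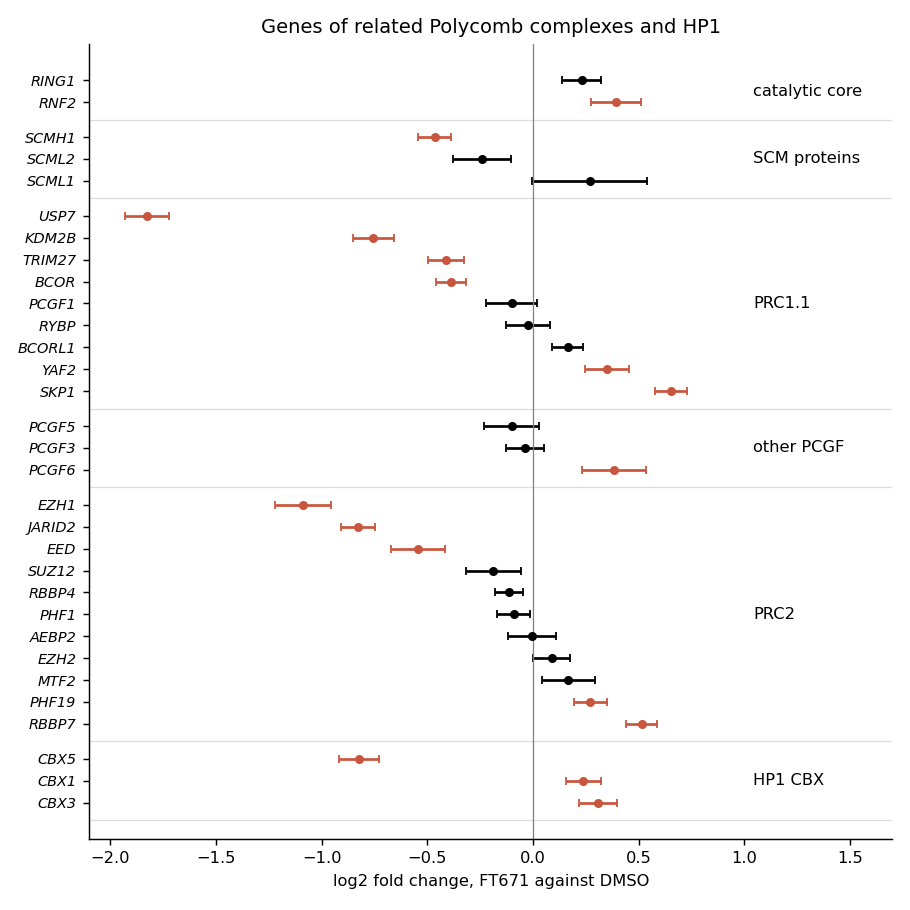
Log2 fold change and standard error (x axis) of 31 genes of related complexes after FT671, grouped by list, in red where the adjusted p-value is below 0.05. Each of the PRC1.1, PRC2 and HP1 lists holds genes on both sides of 0, and USP7 is the lowest gene at −1.83.

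HP1 proteins share the CBX name and the chromodomain but read H3K9 methylation and are not subunits of canonical PRC1. CBX1 (0.24, edgeR adjusted p = 0.0276) and CBX3 (0.31, edgeR adjusted p = 0.0109) were called as higher, and CBX5 fell with a log2 fold change of −0.82 (edgeR adjusted p = 7.88e-06). Neither CBX1 nor CBX3 was called as higher without DMSO replicate 1, FT671 replicate 2 or FT671 replicate 3, and 1 of them was with library totals alone, without a filter, by DESeq2's Wald test or without DMSO replicate 2.

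HOX cluster genes are textbook targets of canonical PRC1. Of 39 HOX genes, 28 did not pass the filter on low counts, 14 of which had 0 counts in all 6 libraries. Of the 11 genes tested, 3 fell, 0 rose and 8 did not pass 0.05, with a median log2 fold change of −0.18, and a share of 3 in 11 is close to the 26.5% of all genes that were lower. With the gene length correction 6 HOX genes were lower. By DESeq2's Wald test 0 HOX genes rose as well, and at an unadjusted p-value of 0.05 edgeR called 0 as higher. HOXB3 fell from 32.3 ± 0.933 to 23.4 ± 1.44 CPM (log2 fold change −0.48, edgeR adjusted p = 0.00166), HOXB5 from 4.13 ± 0.887 to 1.67 ± 0.296 CPM (−1.22, adjusted p = 0.00280) and HOXB8 from 7.72 ± 1.15 to 3.87 ± 1.17 CPM (−0.99, adjusted p = 0.00229, SD, n = 3 each). HOXB9, the HOX gene with the most reads, had 358.5, 355.3 and 366.7 CPM in the DMSO libraries and 331.4, 310.5 and 349.4 CPM in the FT671 libraries, with every FT671 library below every DMSO library, and did not pass 0.05.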

How the data were processed

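Total RNA depleted of ribosomal RNA was sequenced as paired ends. Alignment to hg38 was done by the authors with STAR, run in 2 passes, and they deposited 1 table of raw read counts per gene and library. The STAR version, annotation release and strand setting are not given in the sources used here. Of 60609 listed genes, 60295 were matched to GENCODE 44 by identifier without version, and the other 314 hold 0.0609% of the counts. Multi-copy and overlapping genes may share reads.

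Genes were filtered with filterByExpr, scaled with TMM factors (0.982 to 1.02) and tested with edgeR 4.0.16 in R 4.3.3 (quasi-likelihood, treatment as the single term, Benjamini-Hochberg adjustment), with DESeq2 1.42.0, the tool of the study's methods, as an alternative. The standard error is the log2 fold change divided by the square root of its F value. The fit, with a biological coefficient of variation of 0.0832, was tested on simulated data, and the exact tests were checked on small made-up sets of values. CPM were counts scaled to the total over the genes tested multiplied by the library's TMM factor. TPM used the exon length of GENCODE 44. Ratios, shares and sums were compared with two-sided exact permutation tests over the 20 assignments of 3 and 3 libraries, in which p cannot go below 0.1. The floor of 3 counts corresponds to 0.211 to 0.659 CPM and covers counting error only. The study describes the replicates as independent experiments, which the labels do not state. The edgeR and DESeq2 p-values set the treatment difference against the spread between these samples, and the exact p-values count assignments of the libraries. Neither kind covers other cell lines.

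The members and lists were chosen with earlier results of these data known. The named genes were all members, RING1, RNF2, SCMH1, SCML2, PCGF1, EZH2 and USP7, genes that overlap a member's exons, the 3 genes most like the member with the largest change, and HOX genes past 0.05 with at least 1 CPM. Any other gene was named with its values known. The alternatives were other scaling, filters and tests, the replicate number as a block, corrections for gene length and GC content, and leaving out each library. The use of unshared exon bases as the length was chosen after seeing the data. ChIP-seq was not analysed here.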

Additional observations from a re-analysis of the deposited data

How the results depend on the processing

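Of 453 recomputed values that answer a comparison, 410 counted as the same. For log2 fold changes this meant the same direction and side of the threshold, and for counts a change within 1.5 times. For ratios, shares and sums it meant the same direction and a shift below the pooled SD of the libraries. Some of the 410 could not move. A difference in log2 ratios does not change with length scaling, and the mean of paired differences equals the difference of means. Among the 143 recomputed log2 fold changes of members, 137 kept their direction and side of the threshold. At 0.05 between 5 and 6 members were lower without 1 library and 7 with the GC correction. CBX2, CBX6, CBX8 and PHC2 stayed lower at 0.05 in every alternative. Their log2 fold changes without 1 library were −1.39 to −1.24, −1.82 to −1.75, −1.10 to −0.84 and −0.34 to −0.25. CBX7, with −1.82 to −1.17, had no value with at least 10 counts in every library and stayed lower at 0.05 otherwise. The causes of the changes below were not tested.

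PCGF2 turned to −0.000159 without a filter on low counts and ranged from −0.014 to 0.11 without 1 library. PHC3 passed 0.05 with the GC correction (−0.20), BMI1 ranged from −0.46 to −0.29 without 1 library, and the difference in the log2 ratio of CBX6 to CBX7 ranged from −0.56 to 0.30. The difference in share ranged from −1.25 to 0.239 percentage points for CBX7 and from −0.197 to 1.72 for PHC3. The PHC sum changed by −0.22 on the log2 scale as summed CPM.

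At 1e-05, where 574 genes were lower and 249 higher, 1757 and 977 were without a filter, 1155 and 792 by DESeq2's Wald test, and 1025 and 854 with the GC correction, and 475 were higher with the length correction. Without 1 library the counts ranged from 73 lower and 34 higher (without FT671 replicate 3) to 1501 and 1106 (without DMSO replicate 3), and leaving out each of the other libraries also moved them by over 1.5 times, to at most 300.0 and 120.0. Members lower at 1e-05 were 4 without a filter and 1 to 3 without 1 library, namely 1 without DMSO replicate 1 or any FT671 replicate and 3 without DMSO replicate 3. Companion genes higher at 0.05 were 5 without a filter and 4 to 10 without 1 library, with 4 or 5 without DMSO replicate 1 or FT671 replicate 2 or 3.

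Replicate numbers were not taken as pairs in the main fit. The correlations of deviations from the treatment means were 0.115, −0.061 and 0.140 for numbers 1, 2 and 3. They averaged 0.065, against −0.035 between unequal numbers. With 3 libraries per treatment, such low values cannot decide whether equal numbers are pairs. In the fit with a replicate block, 753 genes were lower and 402 higher at 1e-05, against 574 and 249 without it. With the block, 722 were higher with the length and 724 with the GC correction, and the counts of members were the same.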
